A study of Mus musculus with 6 samples.

Results

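The genes for the vascular endothelial growth factors (VEGF), their receptor tyrosine kinases and the neuropilins were examined in sorted corneal keratocytes, the mesenchymal cells of the corneal stroma. The members were taken by gene name, with no threshold on their values, although earlier results of these data were known when the set was chosen. They were the 5 ligand genes Vegfa, Vegfb, Vegfc, Vegfd and Pgf, the 3 receptor tyrosine kinase genes Flt1, Kdr and Flt4, and the 2 neuropilin genes Nrp1 and Nrp2. All 10 were found among the 17606 genes of the expression table, and all 10 passed the filter on low counts.

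Bulk RNA-seq had been performed on 6 libraries of keratocytes sorted by flow cytometry from mouse corneas, 3 from Ptch1-ablated mice (Prrx1-CreERT;Ptch1 f/f) and 3 from control mice. Per the labels, mice of both groups were 10 weeks old, received 3 doses of tamoxifen and were used after 1 month. The genotype of the control mice is given only as control, and the labels do not say whether a library came from one animal or from several. Ptch1 encodes the receptor that holds Hedgehog signaling off, and the question was how its loss in keratocytes changes their transcripts. The Cre recombinase is driven by Prrx1, which per the study is active in stromal keratocytes and also in the corneal endothelium, the cell layer that lines the inner face of the cornea, and in other mesenchymal cells of the eye.

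VEGF ligands are secreted dimers that bind receptor tyrosine kinases. Kdr carries most of the signal for growth of blood vessels, Flt1 binds Vegfa, Vegfb and Pgf with a weak kinase activity of its own and is also made in a secreted form that traps ligand, and Flt4 receives Vegfc and Vegfd in lymphatic vessels. Neuropilins are co-receptors that bind VEGF ligands and class 3 semaphorins. The healthy corneal stroma has no blood or lymphatic vessels, and secreted Flt1 is known as one of the factors that keep it so.

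Promoter sequences are shown for the members on which the results turn, namely the 2 that passed the test (Flt1 and Nrp1), the main signaling receptor (Kdr) and Vegfa, the ligand best known for its response to low oxygen. Each runs 5′ to 3′ on the strand of its gene over 240 bases, from 250 to 11 bases before the RefSeq start, on GRCm38.p6. Flt1 lies on the minus strand (chr5:147726022-147726261), as do Kdr (chr5:75978466-75978705) and Vegfa (chr17:46032388-46032627), and Nrp1 lies on the plus strand (chr8:128358823-128359062). Capitals mark the core letters of the hypoxia response element, ACGTG or GCGTG, on either strand.
Flt1: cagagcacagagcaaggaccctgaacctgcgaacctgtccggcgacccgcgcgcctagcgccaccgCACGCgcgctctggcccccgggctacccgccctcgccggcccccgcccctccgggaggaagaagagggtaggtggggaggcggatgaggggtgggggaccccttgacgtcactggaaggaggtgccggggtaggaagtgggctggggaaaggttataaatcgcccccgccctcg
Nrp1: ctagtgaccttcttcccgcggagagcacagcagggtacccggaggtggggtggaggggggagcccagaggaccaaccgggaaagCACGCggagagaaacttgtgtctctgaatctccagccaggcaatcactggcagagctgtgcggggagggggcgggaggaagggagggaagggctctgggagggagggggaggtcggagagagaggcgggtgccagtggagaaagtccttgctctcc
Kdr: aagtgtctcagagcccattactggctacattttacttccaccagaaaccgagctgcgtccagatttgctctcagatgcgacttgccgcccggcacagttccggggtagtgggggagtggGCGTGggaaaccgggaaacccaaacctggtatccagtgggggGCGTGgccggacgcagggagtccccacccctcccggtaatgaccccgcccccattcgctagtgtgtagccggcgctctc
Vegfa: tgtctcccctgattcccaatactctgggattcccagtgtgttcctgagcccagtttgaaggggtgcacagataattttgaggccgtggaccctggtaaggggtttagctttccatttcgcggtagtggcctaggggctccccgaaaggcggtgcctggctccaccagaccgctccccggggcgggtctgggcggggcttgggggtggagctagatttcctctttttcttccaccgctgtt
GC content was 70.8% in the Flt1 window, 65.0% in Nrp1, 62.1% in Kdr and 59.2% in Vegfa. The core letters stood 184 to 180 bases before the start in Flt1, 166 to 162 bases before it in Nrp1, and 131 to 127 and 89 to 85 bases before it in Kdr, and they were not present in the printed Vegfa window. Among 12 such windows of the 10 members, 7 held the core letters on either strand, against 37.4% of all 32851 windows of the RefSeq table. The 12 include windows that overlap annotated exons and were not printed. Among them was another Vegfa window, with the core letters 218 to 214 and 211 to 207 bases before its start. The letters GACCACCCA, bound by the Gli factors of Hedgehog signaling, were found in 0 of the 12 windows and in 0.222% of all windows, both strands being searched. These matches describe the letters of the windows only.

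Library totals ran from 20258439 to 24788063 counts, so that 3 counts, the limit that a count of 0 allows for counting error alone, corresponded to 0.121 to 0.148 counts per 1000000. Ptch1 transcripts were counted at 172, 104 and 369 in the control libraries and at 4348, 5194 and 6230 in the ablated ones, each set given in the order of replicates 1 to 3 as throughout. This total does not resolve the deleted exons and so does not check the deletion. Gli1, a transcription factor that Hedgehog signaling switches on, had 1 to 36 counts in control and 3022 to 3098 in ablated libraries, and Hhip, a Hedgehog-binding membrane protein, had 12 to 31 and 23979 to 26893. In a principal component analysis the groups separated on the first component (50.1% of the variance). Control replicate 1 and ablated replicate 2 stood apart from the rest of their groups on the second (18.8%). Keratocyte markers were abundant in every library, with Kera (keratocan) at 15640 ± 1338 TPM (transcripts per 1000000 transcripts; SD, n = 3) in control and 5997 ± 1055 in ablated cells. Markers of vascular endothelium were also present in every library although the tissue is described as avascular: none of 12 such markers was at 0 in any library. Nothing in the labels says that the replicates were separate animals, although the study's methods call them biological replicates, and p-values measure the spread between these libraries.

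The members differed widely in level. In TPM, which is per length and so allows genes to be ordered, the control means ran from Kdr (194.5 ± 34.7, SD, n = 3) over Nrp1 (145 ± 24.2), Nrp2 (54.4 ± 7.53), Vegfc (18.5 ± 10.9), Vegfb (12.96 ± 1.68), Flt1 (9.75 ± 4.09), Vegfd (5.55 ± 3.57), Vegfa (2.98 ± 1.24) and Pgf (1.09 ± 1.04) to Flt4 (0.807 ± 0.326). Of the 9 neighbouring pairs in this order 3 did not overlap over the 3 libraries, Nrp1 with Nrp2, Nrp2 with Vegfc and Vegfa with Pgf. Kdr and Nrp1 overlapped in range, although Kdr was the higher in each of the 3 control libraries. In ablated cells Nrp1 stood first (254 ± 20.2), followed by Kdr (171 ± 11.3), Nrp2 (86.8 ± 18.3), Flt1 (26.3 ± 9.26), Vegfb (16.2 ± 4.81), Vegfc (13.04 ± 0.369), Vegfa (7.99 ± 0.748), Pgf (7.26 ± 0.939), Vegfd (3.50 ± 0.344) and Flt4 (2.01 ± 0.545). There 6 of the 9 neighbouring pairs did not overlap, and Flt1 with Vegfb, Vegfb with Vegfc and Vegfa with Pgf did. The receptors and co-receptors thus made up most of the transcripts of the group in both conditions. The 5 ligands summed to 49.1, 26.7 and 47.5 TPM in control and 47.7, 54.3 and 41.9 TPM in ablated libraries, and the groups overlapped.

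**Figure D1:**
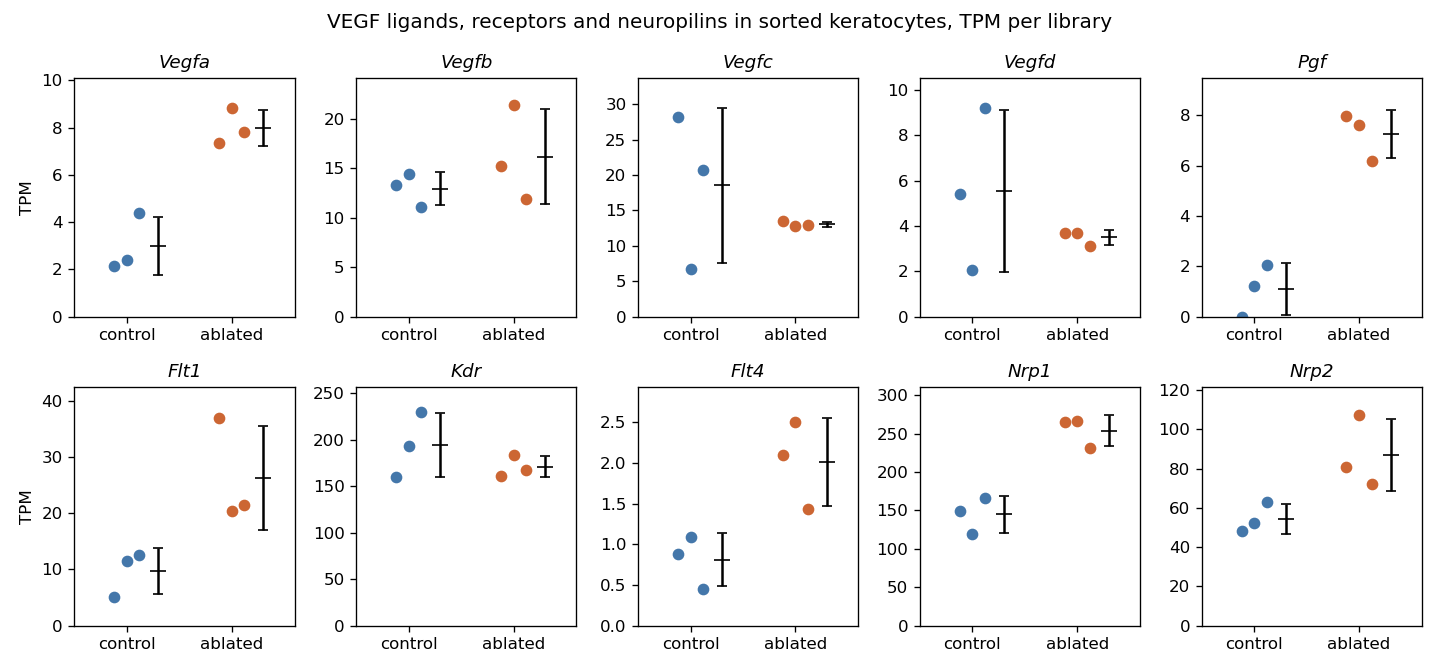
Level of each of the 10 genes in TPM (vertical axis, linear from 0, scaled separately in each panel) in 3 control libraries (blue points, replicates 1 to 3 from left to right) and 3 Ptch1-ablated libraries (orange points), with the mean and SD of each group in black. The groups do not overlap for Vegfa, Pgf, Flt1, Flt4, Nrp1 and Nrp2, and they overlap for Vegfb, Vegfc, Vegfd and Kdr.

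Of the 10 members, Flt1 and Nrp1 passed the test between Ptch1-ablated and control cells, both being higher in ablated cells, and the other 8 did not. A gene passed at a Benjamini-Hochberg adjusted p of at most 0.05 in edgeR's quasi-likelihood test over all 13888 genes tested. Among all tested genes 8.48% passed, 4.68% as higher and 3.8% as lower in ablated cells. With a fold of at least 2 added, 5.49% of tested genes passed, and of the members Flt1. Fitted log2 fold changes were above 0 for 7 members and below 0 for 3, with a median of 0.51 against 0.0046 over all tested genes. In counts per 1000000 of the scaled library total (CPM), the groups did not overlap for 7 of the 10 members, against 27.4% of all tested genes. In TPM they did not overlap for 6, against 30.6%. The median over all tested genes lay at 0.17 (log2) when libraries were scaled by their totals alone and at 0.19 to 0.22 on the log2 TPM scale. The share of passing genes that were higher moved from 55.2% to between 72.6% and 72.9% with these scalings, and it was 49.8% with upper quartile scaling. Values below are on the scale of the fit, in which the median of all genes is near 0.

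**Figure D2:**
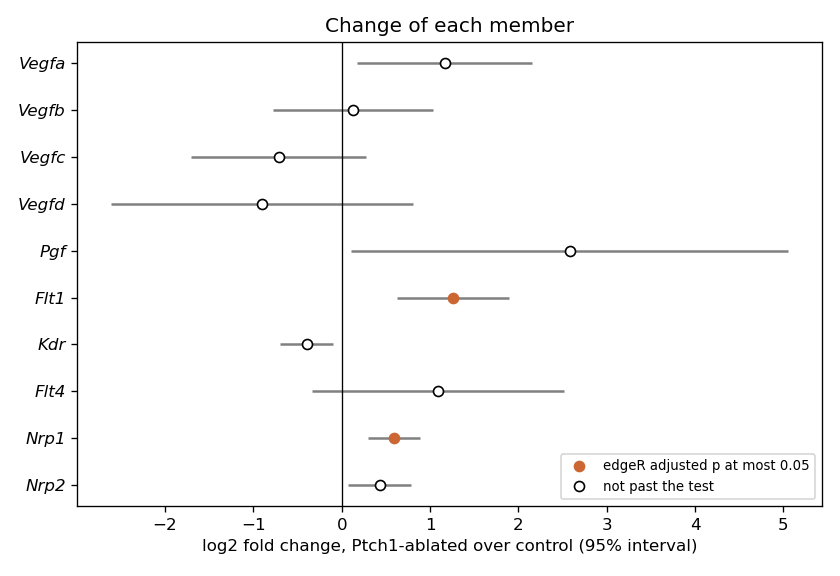
Log2 fold change of each of the 10 genes, Ptch1-ablated over control (horizontal axis), with its 95% interval from the edgeR fit on 3 against 3 libraries. Filled points mark the 2 genes that passed the test, Flt1 (1.26) and Nrp1 (0.59), and open points the other 8; the interval of Kdr lies below 0 and those of Vegfb, Vegfc, Vegfd and Flt4 cross it.

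Among the receptor tyrosine kinases, Flt1 rose. Flt1 (Entrez gene 14254) was measured at 5.07, 11.5 and 12.7 TPM in control and at 37.0, 20.5 and 21.5 TPM in ablated libraries. Every ablated library lay above every control library, with ablated replicate 1 the highest and control replicate 1 the lowest. Its counts ran from 334 to 703 in control and from 1135 to 1841 in ablated libraries. The fitted log2 fold change was 1.26 ± 0.29 (SE; 95% interval 0.62 to 1.90; edgeR adjusted p = 0.0184). Without ablated replicate 1 it was 1.01 with an edgeR adjusted p of 0.0998, and the gene no longer passed. Gene totals do not separate the secreted from the membrane form of Flt1, and in bulk libraries more cells of a type and more RNA per cell cannot be told apart.

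Kdr (Entrez gene 16542), by far the most abundant of the 3 receptors, did not pass the test, and its fitted value was in the opposite direction. It was counted at 464, 557 and 639 CPM in control and at 402, 428 and 431 CPM in ablated libraries, the lowest control library lying above the highest ablated one. In TPM the values were 160.3, 194 and 229.7 in control and 161, 183 and 168 in ablated libraries, and the groups overlapped. On the log2 scale the fitted fold change was -0.40 ± 0.14 (SE; 95% interval -0.70 to -0.096; edgeR adjusted p = 0.112). Its sign was negative in all 16 alternatives, between -0.52 and -0.17. It passed in 2 of them, DESeq2 and the fit without control replicate 1.

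The Flt1 to Kdr ratio of TPM was 0.0316, 0.0595 and 0.0551 in control and 0.229, 0.112 and 0.128 in ablated libraries. Each ablated library was above each control library, and the mean ratio was 0.0487 ± 0.0150 (SD, n = 3) in control and 0.156 ± 0.0637 in ablated cells, a 3.16-fold difference of geometric means. The exact two-sided permutation test gave p = 0.1, the smallest it can give with 3 libraries against 3. Kdr made up 96.4%, 93.9% and 94.6% of the TPM of the 3 receptors in control libraries, and 80.5%, 88.9% and 88.0% in ablated ones.

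Flt4 (Entrez gene 14257), the receptor for Vegfc and Vegfd, was the least abundant member. It had 55, 59 and 28 counts in control and 121, 136 and 90 counts in ablated libraries. All ablated libraries lay above the control libraries. The log2 fold change was 1.09 ± 0.65 (SE; 95% interval -0.34 to 2.51; edgeR adjusted p = 0.397), and the gene did not pass in any of 16 alternatives.

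Of the co-receptors, Nrp1 rose and Nrp2 did not pass the test. Nrp1 (Entrez gene 18186), which binds Vegfa and semaphorin 3A among others, was measured at 149, 119 and 166 TPM in control and at 265, 266 and 231 TPM in ablated libraries. The groups were well apart, and the spread within the ablated group was the smaller of the 2 relative to its mean. The fitted log2 fold change was 0.59 ± 0.14 (SE; 95% interval 0.29 to 0.89; edgeR adjusted p = 0.0173). The fold stayed under 2, and the sign was positive in all 16 alternatives (0.48 to 0.82). The call was lost without control replicate 2 (edgeR adjusted p = 0.107), without ablated replicate 1 (0.0635) or 2 (0.0504), and without both libraries set apart on the second component (0.0583).

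Nrp2 (Entrez gene 18187), which binds Vegfc and semaphorin 3F, was measured at 48.0, 52.4 and 62.7 TPM in control and at 80.8, 107 and 72.2 TPM in ablated libraries. The groups did not overlap, with ablated replicate 2 the highest. On the log2 scale the fitted fold change was 0.43 ± 0.16 (SE; 95% interval 0.071 to 0.79; edgeR adjusted p = 0.152). The Nrp1 to Nrp2 ratio of TPM was 3.11, 2.26 and 2.65 in control and 3.28, 2.48 and 3.19 in ablated libraries, and these ranges overlapped (exact two-sided permutation test, p = 0.5). Summed, the 2 neuropilins reached 197, 171 and 229 TPM in control and 345, 374 and 303 TPM in ablated libraries.

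By edgeR 0 of the 5 ligands passed the test, and 2 of them, Vegfa and Pgf, had an unadjusted p under 0.05. DESeq2 passed 0 of the 5, and limma passed 2 on the log2(TPM + 1) scale and 1 on the log2(TPM + 0.1) scale. Vegfa (Entrez gene 22339), the main ligand of Kdr, was measured at 2.14, 2.40 and 4.40 TPM in control and at 7.35, 8.81 and 7.80 TPM in ablated libraries. The groups did not overlap, and control replicate 3 was the closest to the ablated group. The counts behind these values were 60 to 131 in control and 197 to 245 in ablated libraries. The log2 fold change was 1.16 ± 0.45 (SE; 95% interval 0.18 to 2.15; edgeR adjusted p = 0.159), positive in all 16 alternatives and past the threshold in 1 of them.

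Pgf (Entrez gene 18654), placental growth factor, which binds Flt1 and not Kdr, had 0, 16 and 29 counts in control and 109, 100 and 95 counts in ablated libraries. The 3 ablated libraries were close to each other and above all controls, and the control group held a library with no count. The fitted log2 fold change was 2.58 ± 1.13 (SE; 95% interval 0.11 to 5.06; edgeR adjusted p = 0.220). On the log2(TPM + 1) scale limma gave 2.12 and on the log2(TPM + 0.1) scale 3.48, both past the threshold. At counts this low the size of the difference depended on the scale.

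Vegfb (Entrez gene 22340), another ligand of Flt1, showed no detectable difference. It was measured at 13.4, 14.4 and 11.1 TPM in control and at 15.2, 21.4 and 11.9 TPM in ablated libraries, and the groups overlapped. The fitted log2 fold change was 0.13 ± 0.42 (SE; 95% interval -0.78 to 1.04; edgeR adjusted p = 0.917).

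Vegfc (Entrez gene 22341) and Vegfd (Entrez gene 14205), the ligands of Flt4, were lower on average in ablated cells, with overlapping groups. Vegfc was measured at 28.2, 6.66 and 20.7 TPM in control and at 13.5, 12.8 and 12.9 TPM in ablated libraries. The control libraries spread to both sides of the ablated ones, with control replicate 2 below and the other two above all ablated libraries. The log2 fold change of Vegfc was -0.72 ± 0.45 (SE; 95% interval -1.70 to 0.27; edgeR adjusted p = 0.425), and it ran from -0.26 without control replicate 1 to -1.11 without control replicate 2. Vegfc overlaps the gene Gm33153 in the RefSeq annotation and was the only member whose estimated counts were not whole. Reads common to both genes are split by the quantification. Vegfd was measured at 5.39, 2.07 and 9.20 TPM in control and at 3.70, 3.69 and 3.10 TPM in ablated libraries. Control replicate 2 was again below and the other controls above the ablated group. The log2 fold change of Vegfd was -0.90 ± 0.78 (SE; 95% interval -2.61 to 0.81; edgeR adjusted p = 0.587), and it ran from -0.40 without control replicate 3 to -1.28 without control replicate 2.

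Markers of vascular endothelium were higher in the ablated libraries together with Flt1. Of 12 markers 8 passed the test, all higher. Over all tested genes 8.48% passed, 4.68% as higher and 3.8% as lower, and the counts of the marker lists below stand beside the same shares. The median over the 12 markers was 1.14 on the log2 scale. Their summed level was 515 to 560 CPM in control and 971 to 1203 CPM in ablated libraries. Cdh5 (VE-cadherin) was measured at 7.48, 12.1 and 12.1 CPM in control and at 28.3, 31.5 and 25.3 CPM in ablated libraries (log2 fold change 1.43 ± 0.28, SE; edgeR adjusted p = 0.00785). Pecam1, another junction protein of endothelium, was measured at 54.1, 51.4 and 86.0 CPM in control and at 109.5, 94.8 and 148 CPM in ablated libraries. The calls of Cdh5, Emcn, Vwf, Ptprb and Robo4 held in all 16 alternatives. The call of Pecam1 was lost in 5 of 16, that of Plvap in 4 and that of Esam in 1. All 3 of these were lost without ablated replicate 1, as were those of Flt1 and Nrp1. Erg, an endothelial transcription factor, did not pass (log2 fold change -0.15 ± 0.14, SE; edgeR adjusted p = 0.622). The part of endothelial RNA in the results for Flt1 and Nrp1 was not tested. Of 5 markers of lymphatic endothelium, in which Flt4 is known, 0 passed by edgeR, 0 had an unadjusted p under 0.05 and 0 passed by DESeq2 or limma, with a summed level of 22.8 to 28.6 CPM in control and 25.9 to 28.6 CPM in ablated libraries. Its defining marker Prox1 had 52, 6 and 0 counts in control and 36, 34 and 75 counts in ablated libraries. Of 8 mural cell markers 3 passed, all higher (945 to 1122 CPM in control and 1345 to 1433 CPM in ablated libraries, summed), and of 7 keratocyte markers 5 passed, all lower. Leukocyte markers, of which 2 of 8 passed as higher, summed to 2485 to 2620 CPM in control and 3236 to 3251 CPM in ablated libraries. Most of this sum was Cd74, with 1463 to 1690 CPM in control and 2176 to 2390 CPM in ablated libraries. Fitted values were above 0 for 4 of the 8 and below 0 for 4, with a median of 0.031. Corneal epithelium markers summed to 39.6 to 69.0 CPM in control and 2.68 to 9.68 CPM in ablated libraries, and of 6 tested 3 passed as lower and 1 as higher. Of 4 corneal endothelium markers 0 passed by edgeR, 1 had an unadjusted p under 0.05 and 1 passed by DESeq2. Summed, they had 834 to 946 CPM in control and 595 to 913 CPM in ablated libraries. Most of this was Col8a2, with 625 to 763 CPM in control and 397 to 716 CPM in ablated libraries. Slc4a11 was at 0.918, 9.15 and 4.38 CPM in control and at 21.8, 14.7 and 26.2 CPM in ablated libraries (log2 fold change 2.12 ± 0.61, SE, edgeR adjusted p = 0.0541).

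Ratios of receptors to Cdh5 or Pecam1 within single libraries separated the groups for Kdr. They overlapped for Flt1 and, against Pecam1, for Nrp1. They were chosen after the values were seen and are given without a test. Cdh5 and Pecam1 both passed as higher. Ratios to the other markers, among them Erg (log2 fold change -0.15), were not computed, and they can differ in pattern from those given. Kdr to Cdh5, as a ratio of TPM, was 40.9, 30.4 and 34.9 in control and 9.38, 8.95 and 11.2 in ablated libraries, and the groups did not overlap. The ratio of Flt1 to Cdh5 was 1.29, 1.81 and 1.92 in control and 2.15, 1.00 and 1.44 in ablated libraries, and that of Flt1 to Pecam1 was 0.145, 0.350 and 0.221 in control and 0.449, 0.266 and 0.200 in ablated libraries. Nrp1 to Pecam1 was 4.25, 3.60 and 2.90 in control and 3.21, 3.46 and 2.14 in ablated libraries, with overlapping groups as well. The ratio of Nrp1 to Cdh5 was not computed, so the overlap for Nrp1 holds for Pecam1 only. On the log2 scale of the fit Cdh5 rose by 1.43 and Nrp1 by 0.59, so Nrp1 rose less than Cdh5. Cdh5 itself was at 3.92, 6.36 and 6.58 TPM in control and at 17.2, 20.5 and 14.9 TPM in ablated libraries.

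**Figure D3:**
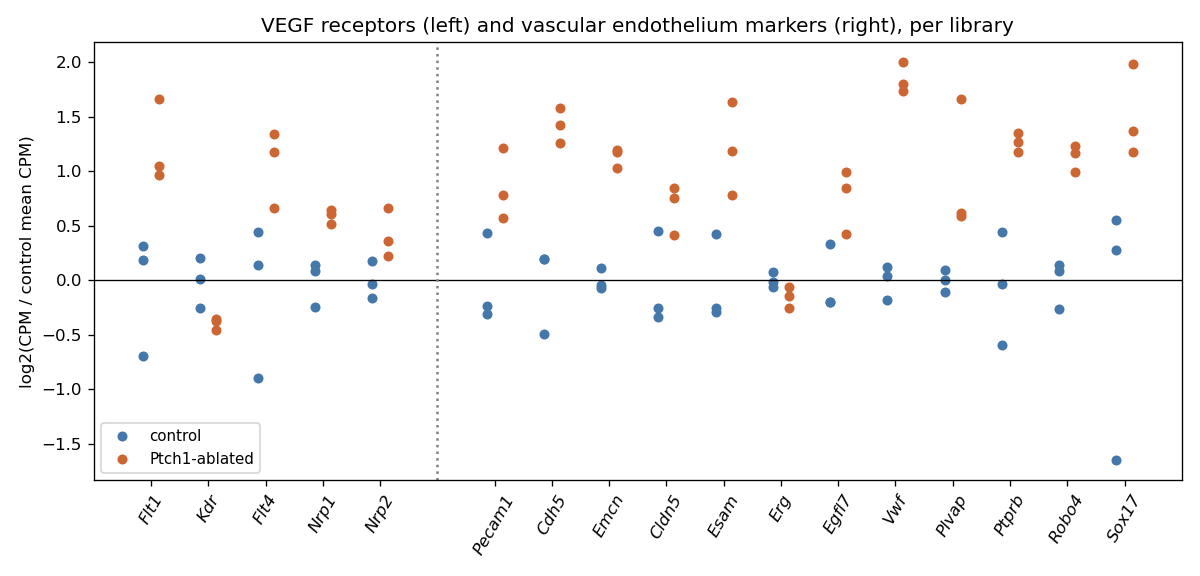
Level of the 5 VEGF receptor and co-receptor genes (left of the dotted line) and of 12 vascular endothelium markers (right) in each library, as log2 of CPM over the mean CPM of the 3 control libraries (vertical axis). Blue points are control and orange points Ptch1-ablated libraries; the ablated points of Kdr and Erg lie below 0, and all other ablated points lie above it.

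Of the 7 class 3 semaphorins, which share the neuropilins with the VEGF ligands, 5 fell in ablated cells. Of 13 semaphorin, plexin and adaptor genes 6 passed the test, 5 lower and 1 higher, against 8.48% of all tested genes. The median log2 fold change of the 13 was -0.24. Sema3c, the most abundant of them, was measured at 913, 1059 and 1195 CPM in control and at 289, 347 and 387 CPM in ablated libraries (log2 fold change -1.63 ± 0.15, SE; edgeR adjusted p = 2.23e-05). Sema3e, which can bind Plxnd1 without a neuropilin, was measured at 33.2, 45.7 and 45.0 CPM in control and at 5.63, 5.31 and 4.31 CPM in ablated libraries (-3.02 ± 0.27). For both genes every ablated library was far below every control library. Sema3a, a ligand of Nrp1, fell by 1.33 (edgeR adjusted p = 0.000723), Sema3f, a ligand of Nrp2, fell by 1.34 (0.000197) and Sema3b fell by 1.13 (0.00744), all on the log2 scale. Plxnd1 rose, from 10.2, 9.52 and 12.6 CPM in control to 37.6, 34.3 and 32.4 CPM in ablated libraries (1.69 ± 0.25, edgeR adjusted p = 0.000982). Sema3d (log2 fold change 1.40, edgeR adjusted p = 0.442) and Sema3g (-0.24, 0.945) were low and did not pass, nor did the plexins Plxna1, Plxna2, Plxna3 and Plxna4 or the adaptor Gipc1. All 6 calls held in all 16 alternatives. The ratio of the 7 summed semaphorins to the 5 summed VEGF ligands, in TPM and chosen after the values were seen, was 13.0, 26.2 and 16.1 in control and 5.37, 5.59 and 7.04 in ablated libraries.

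**Figure D4:**
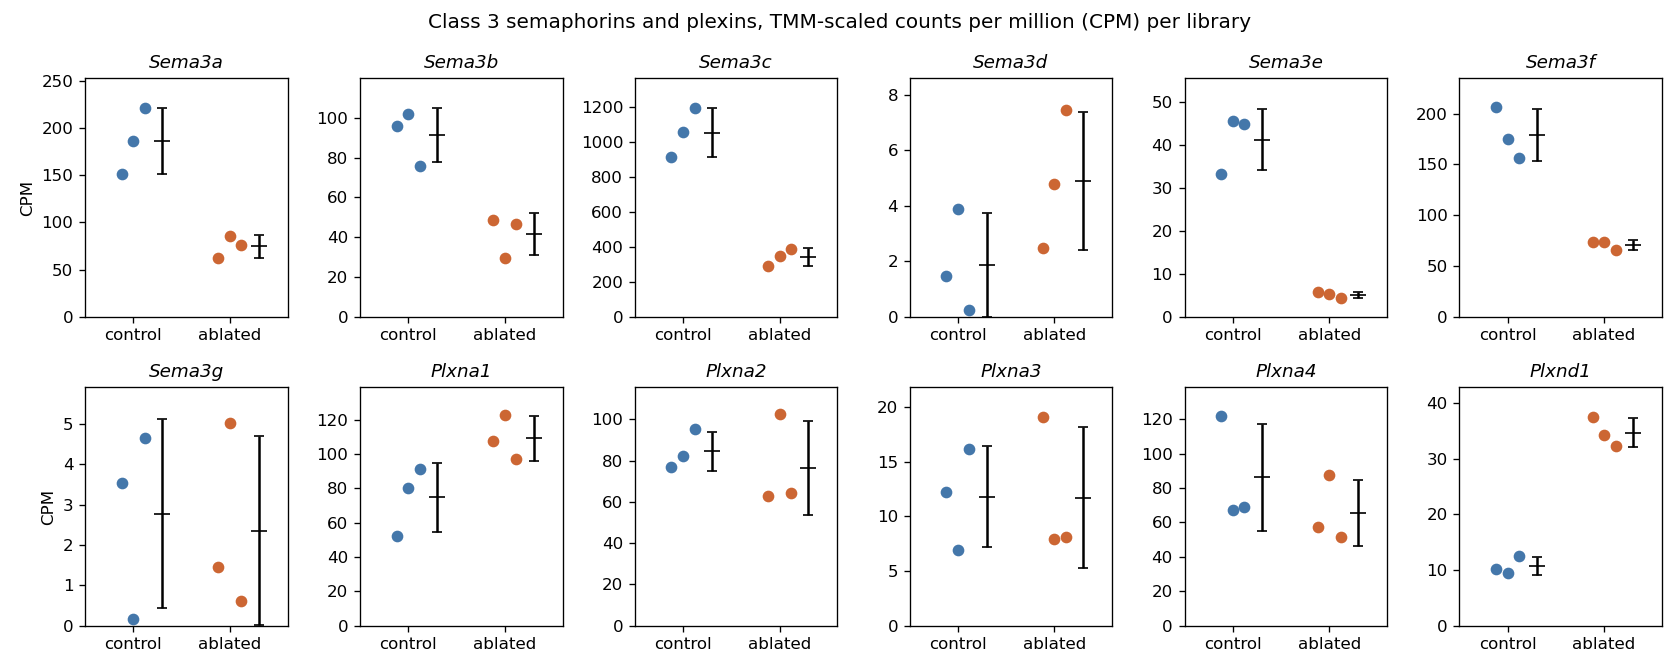
Level of the 7 class 3 semaphorins and 5 plexins in CPM (vertical axis, linear from 0, scaled separately in each panel) in 3 control libraries (blue points) and 3 Ptch1-ablated libraries (orange points), with the mean and SD of each group in black. Sema3a, Sema3b, Sema3c, Sema3e and Sema3f are lower in every ablated library than in every control library. Plxnd1 and Plxna1, of which Plxna1 did not pass the test, are higher in every ablated library.

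Genes that process, bind or trap VEGF ligands moved in both directions. Of 17 such genes 16 were tested and 7 passed, 4 higher and 3 lower, against 8.48% of all tested genes. Ccn2, a matrix protein that can bind Vegfa, rose by 2.12 ± 0.15 (log2 scale, SE; edgeR adjusted p = 4.21e-06), from 91.7 to 126 CPM in control to 448 to 502 CPM in ablated libraries. Igfbp7 rose by 2.05 and Adamts1, a protease that binds Vegfa, rose by 1.40. Ccbe1, which is needed to activate Vegfc, fell by 1.43 ± 0.21 (SE; edgeR adjusted p = 0.000830), from 57.2 to 77.7 CPM in control to 23.4 to 28.5 CPM in ablated libraries. Sparc (edgeR adjusted p = 4.21e-06) and Fn1, fibronectin (0.000115), fell as well. Furin (log2 fold change 0.24, edgeR adjusted p = 0.642) and Pcsk5 (0.75, 0.0596), proteases that can cut Vegfc and Vegfd, did not pass. The groups of Pcsk5 did not overlap in CPM or TPM.

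Downstream of the receptors, 3 of 41 signaling genes passed, all higher, a share near that of the whole table, and the median log2 fold change was 0.20. Gab1, an adaptor of receptor tyrosine kinases, was measured at 80.9, 71.3 and 67.9 CPM in control and at 613, 515 and 529 CPM in ablated libraries. No control library came near the ablated ones (log2 fold change 2.91 ± 0.14, SE; edgeR adjusted p = 2.39e-07). Nos3, the nitric oxide synthase of endothelium, rose by 1.88 (edgeR adjusted p = 0.0136), and this call was lost in 3 of 16 alternatives. Hspb1, a small heat shock protein phosphorylated downstream of Kdr, rose by 1.24 (edgeR adjusted p = 0.000238). The other 38, among them Plcg1 and Akt1, did not pass.

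Of 17 angiogenesis inhibitors 5 passed, 4 lower and 1 higher, against 8.48% of all tested genes. Fitted values were above 0 for 7 and below 0 for 10. Vash1 (2.32, edgeR adjusted p = 0.118) and Col15a1 (1.77, 0.139) did not pass, although each was higher in every ablated library than in every control library. Tnmd (-0.57, 0.124) and Timp3 (-0.34, 0.222) did not pass either, although each was lower in CPM in every ablated library than in every control library. Serpinf1, the secreted inhibitor also called PEDF, was measured at 5089, 4833 and 5016 CPM in control and at 2711, 2332 and 2816 CPM in ablated libraries (log2 fold change -0.93 ± 0.10, SE; edgeR adjusted p = 9.04e-05). Timp2 fell by 1.24, Cnmd (chondromodulin) fell by 2.10 and Thbs1 (thrombospondin) fell by 0.73 on the log2 scale. The calls of Thbs1 and Cnmd were lost without control replicate 2, and that of Thbs1 also with limma on either log2 TPM scale. The highest adjusted p over the 16 alternatives was 0.0604 for Thbs1 and 0.0690 for Cnmd. Col18a1, the collagen from which endostatin is cut, rose by 1.63 ± 0.18 (SE; edgeR adjusted p = 0.000108).

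Among oxygen-sensing genes, which act upstream of Vegfa, and among hypoxia targets the shares that passed were near the 8.48% of the whole table. Of 10 genes of hypoxia sensing 1 passed: Hif1a, an oxygen-regulated subunit, fell by 0.55 (edgeR adjusted p = 0.0468), a call lost in 9 of 16 alternatives. Epas1 went the other way without passing (0.78, edgeR adjusted p = 0.0643), and its groups did not overlap in CPM. Of the 10 genes, 5 had fitted values above 0 and 5 below. The count for this list was 4 with DESeq2 and 3 with library totals alone or with limma. Of 13 tested hypoxia targets 1 passed, Ndrg1, which rose by 1.14 ± 0.15 (SE; edgeR adjusted p = 0.000495). The median of the targets was 0.53, with fitted values above 0 for 10 and below 0 for 3. In CPM the groups did not overlap for 10 of the 13, among them Slc2a1, which was lower, against 27.4% of all tested genes. The summed level of the targets was 1691 to 1714 CPM in control and 2030 to 2332 CPM in ablated libraries. The count of targets passing was 7 with DESeq2 or with library totals alone and 9 with limma on the log2 TPM scale.

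All 5 angiopoietin and Tie receptor genes had fitted values above 0, and 3 passed, against 8.48% of all tested genes. Tie1, a receptor of endothelial cells, was measured at 6.52, 20.5 and 16.1 CPM in control and at 67.2, 53.0 and 64.2 CPM in ablated libraries (log2 fold change 2.10 ± 0.35, SE; edgeR adjusted p = 0.00244). Angpt1, a ligand of the receptor Tek, rose by 1.69 (edgeR adjusted p = 0.0169). Angpt4 had 0 counts in each control library and 17, 78 and 26 in ablated libraries, at least 10.7-fold higher when the control group is set at the 3 counts per library that a count of 0 allows (edgeR adjusted p = 0.0226). The Angpt1 call was lost in 2 of 16 alternatives and that of Angpt4 in 7 of 15. Without control replicate 2, or without ablated replicate 3, 1 of the 5 genes passed.

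The genes whose pattern over the 6 libraries was most like that of a member were named by Pearson's r of log2(CPM + 1) among 12141 genes with a mean count of at least 50. For Flt1 they were Cyth3 (r = 0.994), Trib2 (0.994) and Kdm4b (0.992), for Nrp1 they were Wdr76 (0.998), Bag3 (0.997) and Abcg2 (0.994), and for Vegfa they were Epb41l2 (0.998), Gbp2 (0.994) and Ggta1 (0.993). The 6 points share the 2 groups, and the values are descriptions.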

How the data were processed

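RNA was measured in 6 libraries of sorted corneal keratocytes, 3 control and 3 Ptch1-ablated, grouped by the sample titles. Reads had been aligned with Bowtie2 2.2.5 and quantified with RSEM 1.2.12 on mm9, per the submitters' processing notes. Annotation release and strandedness were not given in the sources used here, so overlapping and antisense genes could not be told apart. The labels name a TruSeq kit and the study's methods name ribosomal depletion with BGISEQ sequencing, a difference that was not settled.

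The deposited table holds RSEM estimated counts, not normalized, of which 18.6% were not whole (tolerance 0.001), and the authors' TPM and FPKM values, scaled by length and library. The deposited FPKM values and the authors' group averages were not used. Of 17606 Entrez identifiers 17478 (99.3%) were found in a RefSeq table. Promoter sequences came from RefSeq on GRCm38.p6, a later build than that of the counts, and all 10 members matched (12 windows). A window was shown only where it overlapped no exon of the GENCODE annotation.

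Estimated counts were rounded and genes were kept by filterByExpr (13888). After TMM scaling the groups were compared by edgeR's two-sided quasi-likelihood test with p-values adjusted by Benjamini-Hochberg over these genes (edgeR 4.0.16, R 4.3.3). Intervals of 95% used the degrees of freedom of the fit. CPM are counts per 1000000 of the scaled total. Ratios were compared by an exact permutation test (SciPy 1.17.1). Alternatives used DESeq2 1.42.0 and limma 3.58.1, and the scripts were tested on simulated data. Same-numbered libraries did not deviate together, and the numbers were not taken as pairs. Replicates of a group differed by more than sampling noise (chi-square per degree of freedom 35.0 to 63.5).

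Members and gene lists were chosen with earlier results of these data known. Genes named were the 10 members, 3 genes for the label check, of each pathway list at most the 6 passing genes of largest change, markers that bear on a member, and the 3 genes most alike in pattern to Flt1, Nrp1 and Vegfa. Genes named as not passing, and ratios said to be so, were chosen after their values were seen.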

Additional observations from a re-analysis of the deposited data

How the results depend on the processing

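Each of the 329 alternative values was compared with its reported value, and 278 kept their direction and their side of the threshold or, where the value was a count, stayed within 1.5 times the reported count. For the members' log2 fold changes these were 145 of 160. The alternatives of the ratio tests could not cross the threshold, since their permutation p cannot be below 0.1, and only their direction could differ. Leaving out 1 library at a time gave 1.01 to 1.45 for Flt1 (not past the threshold without ablated replicate 1), 0.48 to 0.67 for Nrp1 (not past it when control replicate 2 or either of ablated replicates 1 and 2 was left out), -0.51 to -0.28 for Kdr (past it without control replicate 1) and -0.071 to 0.27 for Vegfb, whose sign turned without ablated replicate 2. The number of members passing then ran from 0 (without ablated replicate 1) to 3. In all, between 778 genes (without control replicate 2) and 1015 genes passed, with 3 to 6 angiogenesis inhibitors, 0 to 1 genes of hypoxia sensing, 1 to 2 hypoxia targets and 1 to 5 angiopoietin and Tie genes. Without control replicate 1 and ablated replicate 2 together, an alternative chosen after seeing the data, Vegfb was at -0.044 and Nrp1 at 0.62 (adjusted p = 0.0583 by edgeR), and 1 member passed.

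Correlations of the deviations of same-numbered libraries were -0.022, -0.063 and 0.039. With the replicate block Flt1 was at 1.27 (adjusted p = 0.0560 by edgeR), 1 member, 2 genes of hypoxia sensing and 942 genes in all passed. By limma on log2(TPM + 1), 5 members passed, among them Vegfa (1.21), Pgf (2.12) and Nrp2 (0.65), with 7 signaling genes, 3 of hypoxia sensing and 9 hypoxia targets. On log2(TPM + 0.1) Pgf was at 3.48, with 3 and 9 genes of the hypoxia lists. Library totals alone gave Nrp2 at 0.60 (past the threshold), 5 signaling genes, 3 of hypoxia sensing and 7 hypoxia targets. DESeq2 gave Kdr at -0.39 (adjusted p = 0.0460), 1813 genes over the whole table, and 4 and 7 genes of the hypoxia lists. RLE scaling gave 2 hypoxia targets, no low-count filter 2 genes of hypoxia sensing, and a mean count of at least 50 gave 3 of hypoxia sensing and 2 targets. With a fold of at least 2 added, 1 member, 763 genes over the whole table, 3 angiogenesis inhibitors and 0 genes of hypoxia sensing passed. The cause of these differences was not tested. Control libraries held at most 131 counts of Vegfa, 121 of Vegfd, 59 of Flt4 and 29 of Pgf, which limits the precision of these genes.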
